A study of Mus musculus with 6 samples.

Results

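A set of 39 genes of mitochondrial fuel use was followed in mouse hearts under pressure load. They carry pyruvate into the mitochondrion and decarboxylate it, run the citrate cycle without succinate dehydrogenase, and break down ketone bodies and branched-chain amino acids. They were chosen by symbol from the function of their products, and all 39 were found among the 24404 genes of the read count table. All 39 were also among the 12487 genes with enough counts to be tested. The hearts came from wild-type mice (WT-TAC) and from mice lacking miR-204 on both alleles (miR-204-/-, KO-TAC), with 3 libraries each. Every mouse underwent transaortic constriction (TAC), in which the aorta is narrowed so that the left ventricle pumps against a higher pressure, and tissue was taken 5 weeks later. An unoperated group was not analysed here, so the values compare genotypes after surgery. The labels do not give strain, sex, age, the cells that lost miR-204 or the number of animals behind a library, so the p-values speak only of variation among these libraries, which may be technical.

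The heart draws most of its energy from mitochondrial oxidation. Pyruvate enters through a carrier and is turned into acetyl-CoA by the pyruvate dehydrogenase complex, which kinases of the Pdk family switch off and a phosphatase switches on. Fatty acids, ketone bodies and some branched-chain carbon reach the same acetyl-CoA pool, which the citrate cycle oxidises. In failing hearts, lower expression of several of these genes and a greater use of ketone bodies have been described.

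Depth was similar across libraries, at 6411538 to 8571737 counts. Ventricular cardiomyocyte markers, 7 of 7 detected, summed to 64397 to 92860 CPM (reads relative to a library total scaled by TMM). Markers of liver reached at most 0.472 CPM in sum, and those of fast skeletal muscle at most 6.76 CPM. Some adipocyte markers were uneven. Ucp1 of brown fat had 80 reads in WT-TAC replicate 3, 40 in KO-TAC replicate 1, 12 in KO-TAC replicate 2 and 0 elsewhere. Adipoq of white fat had 39 reads in WT-TAC replicate 3, 34 in KO-TAC replicate 1 and 0 elsewhere. Cfd, also of white fat, had 122 and 95 reads in these libraries and 1 to 28 elsewhere. Plin1, Lep and Elovl3 were likewise highest in WT-TAC replicate 3, and next in KO-TAC replicate 1. The other listed adipocyte markers, Fabp4, Dio2, Cidea and Cox7a1, were not highest in WT-TAC replicate 3. Dio2 was lowest there, at 8.22 CPM against 19.1 to 58.4. Fabp4 was highest in KO-TAC replicate 3, at 396 CPM against 221 to 255. Whether adipose tissue had a part in the levels of the 39 genes was not tested. Of the erythroid markers Hba-a1, Hba-a2, Hbb-bs and Hbb-bt had no count, while Alas2 was present at 22.6 to 71.6 CPM. Mylpf of fast muscle and Serpina1a of liver had no count either. The column used for KO-TAC replicate 3 carries a number that the labels give to WT-TAC replicate 3 and was matched by its library index alone. Pdk4, Pdhb, Pdk1 and Pdp1 are given with and without it.

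To show what the deleted microRNA could pair with among these genes, its mature sequence (RefSeq, GRCm38.p6, chr19:22750610-22750631, plus strand) is printed with the seed, bases 2 to 8, in capitals. It is followed by the first seed match in the longest annotated 3' UTR of each gene that has one (GENCODE M21 transcripts, the match AAAGGGA in capitals).
miR-204-5p: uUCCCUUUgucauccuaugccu
Mpc2: aactcaaatctAAAGGGAtccagtaagag
Pdk4: agtcgagttcaAAAGGGAgataaaattgc
Pdp1: gaatgttaaatAAAGGGAaaatgtgtttt
Acat1: gaggtgggccaAAAGGGAtgttaaagcgt
Bckdk: taggactcccaAAAGGGAgtaggagaagc
Ppm1k: atataagagatAAAGGGAtacaaggtaca
Ivd: gtggctttataAAAGGGAatcttaaacta

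In GRCm38 the capitals lie at chr1:165480925-165480931 for Mpc2 (plus strand), chr6:5484752-5484758 for Pdk4 (minus), chr4:11959880-11959886 for Pdp1 (minus) and chr9:53580562-53580568 for Acat1 (minus). Those of Bckdk lie at chr7:127909180-127909186 (plus), of Ppm1k at chr6:57510051-57510057 (minus) and of Ivd at chr2:118882656-118882662 (plus). The match was present in 7 of 39 members, 17.9%, against 18.1% of the 11673 tested genes with an annotated 3' UTR. Counted per gene, the members thus hold it about as often as others do. Their 3' UTRs were shorter, with a median of 968 bases against 1436, and the shares were not adjusted for length. In KO-TAC against WT-TAC 3 of the 7 had a log2 fold change above 0 and 4 below, with a median of −0.03. Over all 2109 tested genes with the match the median was −0.02.

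None of the 39 genes passed the test between the genotypes. By edgeR (quasi-likelihood, Benjamini-Hochberg over all tested genes), 0 of 39 passed an adjusted p of 0.05, and each had an adjusted p of 0.999. Of all tested genes 0.024% passed, 0.016% higher and 0.00801% lower in KO-TAC. At an unadjusted p under 0.05 there were also 0 of 39, against 2.93% of all tested genes, 1.36% higher and 1.57% lower. DESeq2 and limma-voom likewise called 0 members, with 0 at an unadjusted p under 0.05. In other settings 0 members were called too, but Pdp1 passed an unadjusted 0.05 in limma-voom with quality weights (adjusted p = 0.889) and in edgeR with the replicate block, with WT-TAC replicate 1 left out and with KO-TAC replicate 3 left out (adjusted p = 0.995, 0.9995 and 0.837), and Bckdha with the replicate block (adjusted p = 0.995). The levels of WT-TAC and KO-TAC libraries overlapped for all 39 members, whereas they did not overlap for 7.98% of all tested genes, 4.26% with every KO-TAC library above and 3.72% with every one below. For 35 of 39 the difference between group means on the log2 scale was smaller than the pooled SD between replicates, against 75.5% of tested genes. The others were Pdhb, Pdk1, Pdp1 and Got1.

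The precision of these comparisons can be read from their intervals. The median standard error of the log2 fold change was 0.21, and for 35 of 39 members the 95% interval of the fold, KO-TAC over WT-TAC, lay within 0.5 to 2. Without Pdk4 the intervals of the other members ran from 0.391 at the lowest to 1.96 at the highest.

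**Figure D1:**
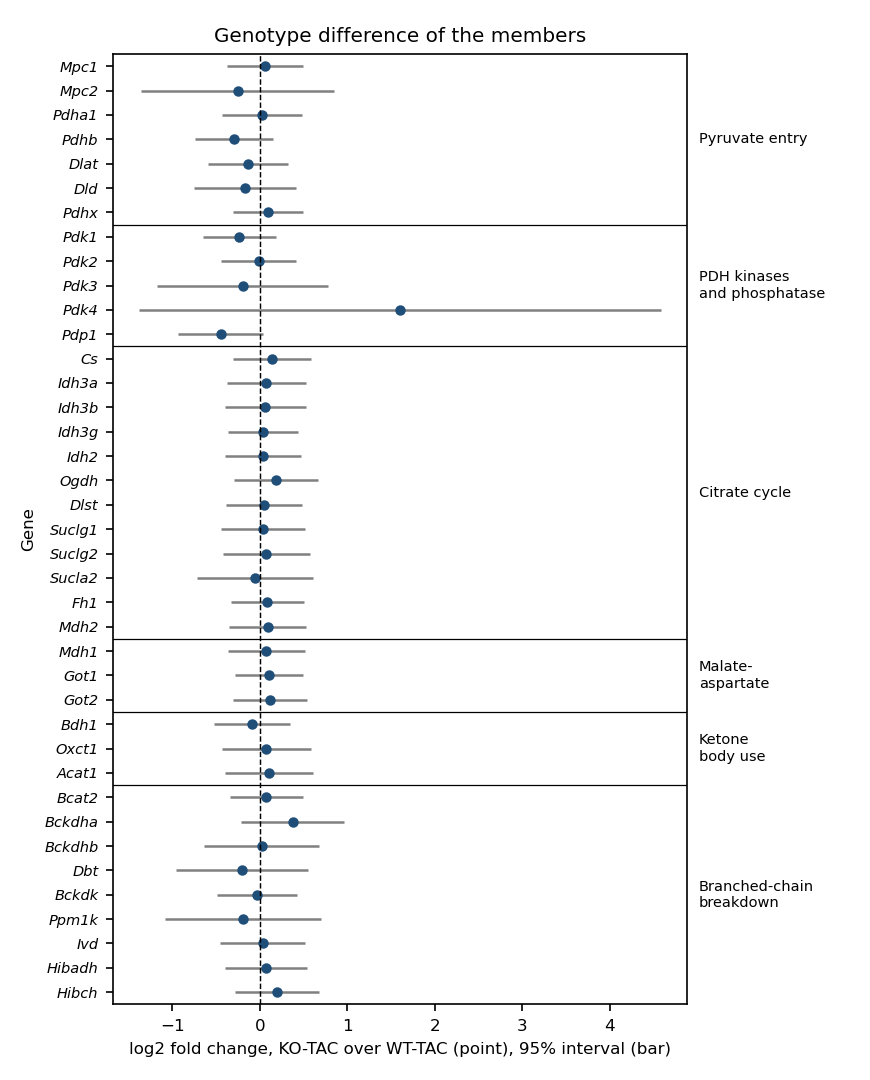
Log2 fold change of each member, KO-TAC over WT-TAC (x axis), by gene and step (y axis); points are estimates of the edgeR fit on 3 against 3 libraries and bars their 95% intervals, and PDH stands for pyruvate dehydrogenase. All bars cross 0, and that of Pdk4 spans folds of 0.384 to 24.1.

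In direction, 26 of 39 members were above 0 and 13 below, with a median log2 fold change of 0.05, where 50.2% of all tested genes were above 0 and 49.8% below, with a median of 0.0012. That count rested on single libraries: it was 9 of 39 without WT-TAC replicate 1, 14 without KO-TAC replicate 3 and 34 without WT-TAC replicate 3. By step, medians were −0.14 for pyruvate entry (3 of 7 above 0), −0.20 for the kinases and phosphatase (1 of 5), 0.07 for the citrate cycle (11 of 12), 0.10 for malate-aspartate exchange (3 of 3), 0.07 for ketone body use (2 of 3) and 0.03 for branched-chain breakdown (6 of 9). Without WT-TAC replicate 1 the citrate cycle median was −0.07, that of branched-chain breakdown −0.15, that of ketone body use −0.06 and that of malate-aspartate exchange 0.02.

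Genes of pyruvate entry did not separate the genotypes. Pdha1, the catalytic E1 alpha subunit of pyruvate dehydrogenase (chrX:160122209-160138413 in GRCm38), stood at 741, 893 and 1026 CPM in WT-TAC replicates 1 to 3 and at 748, 931 and 1036 in KO-TAC replicates 1 to 3. Its groups cover almost the same range, with a log2 fold change of 0.03 ± 0.21 (SE, n = 3 each). Pdhb, the E1 beta subunit, had 314, 360 and 395 CPM in WT-TAC and 225, 299 and 347 in KO-TAC. KO-TAC replicates 1 and 2 lay below every WT-TAC library and replicate 3 among them, a log2 fold change of −0.30 ± 0.21 (SE; fold interval 0.60 to 1.11). Without KO-TAC replicate 3 it was −0.44 ± 0.21, with an adjusted p of 0.892 in edgeR.

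The other subunits of the complex varied more between replicates than between genotypes. Dlat, the E2 acetyltransferase, had 276, 293 and 376 CPM in WT-TAC and 240, 263 and 357 in KO-TAC, with replicate 3 the highest of each group (log2 fold change −0.14 ± 0.21). Dld, the E3 subunit that pyruvate, 2-oxoglutarate and branched-chain dehydrogenases share, had 331, 366 and 580 CPM in WT-TAC and 333, 282 and 522 in KO-TAC. Again replicate 3 was the highest of each group, and the log2 fold change was −0.17 ± 0.27. Pdhx, which tethers E3 to the complex, had a log2 fold change of 0.09 ± 0.18, on 113 to 162 CPM.

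The subunits of the mitochondrial pyruvate carrier, Mpc1 and Mpc2, which work as a pair, did not follow each other across libraries. Mpc1 ranged from 122 to 177 CPM over the 6 libraries, and Mpc2 from 96.0 in WT-TAC replicate 1 to 351 in WT-TAC replicate 3, a ratio of 3.66 within one genotype. Per kilobase of exons, the ratio of Mpc1 to Mpc2 was 4.47, 2.94 and 1.73 in WT-TAC and 3.73, 5.21 and 1.72 in KO-TAC. Their log2 fold changes were 0.06 ± 0.20 for Mpc1 and −0.25 ± 0.47 for Mpc2.

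Of 8 ratios looked at by name, only that of Pdha1 to Pdhb separated the genotypes. Ratios of other subunits of the complex were not looked at by name. Pdha1 over Pdhb, per kilobase of exons, was 2.44, 2.57 and 2.69 in WT-TAC and 3.43, 3.22 and 3.09 in KO-TAC. It was picked out of 8 ratios after its values were seen and was not tested. Among all 741 pairs of members the ratio did not overlap between genotypes for 55, or 7.42%, against 8.46% of all pairs of tested genes, so such a pair is about as common here as elsewhere.

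Pdk4, a kinase that switches pyruvate dehydrogenase off and is known to be induced by fasting and fatty acids, stood apart in a single library. It lies on the minus strand of chromosome 6 (chr6:5483351-5496309, GRCm38). Its level was 179, 415 and 285 CPM in WT-TAC replicates 1 to 3, 187 and 218 CPM in KO-TAC replicates 1 and 2, and 2267 CPM in KO-TAC replicate 3, which held 15345 of its reads. KO-TAC replicate 3 was thus 11.2 times the mean of the other KO-TAC libraries and 5.47 times the next highest library. That excess over the next highest library ranked 1st among the 8607 tested genes with a mean of at least 10 CPM.

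The genotype comparison of Pdk4 turned on that library. With all libraries the log2 fold change was 1.61 ± 1.15 (SE; unadjusted p = 0.224 and adjusted p = 0.999 in edgeR). Without KO-TAC replicate 3 it was −0.53 ± 0.29, with an adjusted p of 0.896, while limma-voom on all libraries gave 0.72, and 0.03 with quality weights. In KO-TAC replicate 3 the summed ventricular cardiomyocyte markers were 92860 CPM, against 64397 to 83879 in the others. Nppa, the atrial natriuretic peptide gene induced by load, stood at 311 CPM against 2444 to 7904, Nppb at 129 against 202 to 1492, while Myh7, the third load marker, stood at 6578 against 2379 to 14269. The other atrial markers were also low there, Myl4 at 59.0 CPM against 357 to 796, Myl7 at 32.4 against 90.2 to 199 and Sln at 7.68 against 29.0 to 67.8, as were the summed smooth muscle markers, 5 of 5 detected, at 66.8 against 176 to 270. Whether these had a part in the level of Pdk4 was not tested.

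The other kinases did not share this. Pdk2 was at 223, 320 and 309 CPM in WT-TAC and 248, 312 and 284 in KO-TAC (log2 fold change −0.02 ± 0.20). Pdk1, a kinase induced under low oxygen, was at 206, 177 and 226 CPM in WT-TAC and 152, 154 and 212 in KO-TAC. KO-TAC replicates 1 and 2 lay below all WT-TAC libraries and replicate 3 among them, a log2 fold change of −0.23 ± 0.20. Without KO-TAC replicate 3 it was −0.41 ± 0.20, with an adjusted p of 0.892 in edgeR. Pdk3 was low throughout, at 3.25 to 7.74 CPM.

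Per kilobase of exons, Pdk2 and Pdk4 made up most of the kinase transcripts. Pdk4 had 33.9%, 48.4% and 38.5% of the summed kinase level in WT-TAC, 34.6% and 34.1% in KO-TAC replicates 1 and 2, and 84.5% in KO-TAC replicate 3. Pdk2 had 41.5% to 54.1% in the other libraries and 11.7% in that one. The mean share of Pdk4 in KO-TAC minus that in WT-TAC was 10.8 percentage points with all libraries and −5.94 without KO-TAC replicate 3.

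Pdp1, a phosphatase that switches the complex back on, had the lowest unadjusted p of the members. It stood at 37.8, 54.2 and 58.1 CPM in WT-TAC and at 35.9, 30.9 and 43.4 in KO-TAC. KO-TAC replicates 1 and 2 were below all WT-TAC libraries, and replicate 3 lay between the lowest and the others. The log2 fold change was −0.45 ± 0.23 (SE), with an unadjusted p of 0.0683 and an adjusted p of 0.999 in edgeR, and a fold interval of 0.524 to 1.03. It was −0.32 to −0.61 with 1 library left out, and −0.58 without KO-TAC replicate 3. Its 3' UTR holds a seed match followed by an A, as printed above. So do those of Ivd and Ppm1k, in Ppm1k at a site not printed, with log2 fold changes of 0.03 and −0.19. The share of tested genes with such a match was not counted, and a link of the match to the level was not tested. Pdp2, another pyruvate dehydrogenase phosphatase and not a member, stood at 12.5 to 38.0 CPM. Its log2 fold change was −0.06 ± 0.39.

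**Figure D2:**
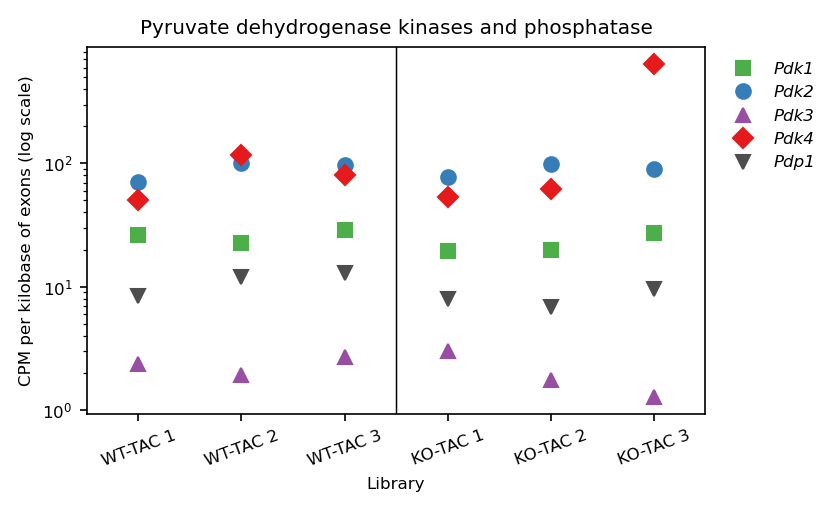
Level of the 4 pyruvate dehydrogenase kinases and of the phosphatase Pdp1 in CPM per kilobase of exons (y axis, log scale) in each library (x axis), 1 point per library. Pdk4 reaches 646 in KO-TAC replicate 3 and lies between 50.9 and 118 in the other libraries.

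For the citrate cycle, 11 of 12 genes had a log2 fold change above 0, between −0.06 and 0.19 for all 12, and the same libraries were low for most of them. Cs, citrate synthase, which joins acetyl-CoA to oxaloacetate, was at 559, 743 and 764 CPM in WT-TAC and 667, 747 and 861 in KO-TAC. WT-TAC replicate 1 was the lowest and KO-TAC replicate 3 the highest, and the log2 fold change was 0.14 ± 0.21 (fold interval 0.810 to 1.498), and 0.0062 without WT-TAC replicate 1. Ogdh, the E1 subunit of 2-oxoglutarate dehydrogenase, had 1685, 2245 and 2325 CPM in WT-TAC and 1986, 2457 and 2681 in KO-TAC. The order was the same as for Cs at both ends, with a log2 fold change of 0.19 ± 0.22, and 0.05 without WT-TAC replicate 1.

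WT-TAC replicate 1 was the lowest library for 10 of the 12 citrate cycle genes, the exceptions being Dlst, the E2 subunit of 2-oxoglutarate dehydrogenase, and Sucla2. All 12 genes lay above their mean in WT-TAC replicate 3 and 11 of 12 in KO-TAC replicate 3. Of all 12487 tested genes, 5739 and 5754 lay above their mean in these libraries. The subunits of the NAD-linked isocitrate dehydrogenase, Idh3a, Idh3b and Idh3g, had log2 fold changes of 0.07 ± 0.21, 0.06 ± 0.21 and 0.04 ± 0.19. Idh2, the NADP-linked enzyme that feeds antioxidant defence, had 1389 to 1775 CPM and 0.04 ± 0.20. Fh1, fumarate hydratase, had 0.08 ± 0.19 and Mdh2, mitochondrial malate dehydrogenase, 0.09 ± 0.20.

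Succinyl-CoA ligase shares an alpha subunit, Suclg1, between an ADP-linked beta subunit, Sucla2, and a GTP-linked one, Suclg2. Suclg1 had a log2 fold change of 0.04 ± 0.22, Suclg2 0.08 ± 0.23 and Sucla2 −0.06 ± 0.30. Sucla2 was above Suclg2 in every library, by 5.81 to 7.81 times per kilobase in WT-TAC and 4.32 to 7.91 times in KO-TAC. The ADP-linked form stood at 298, 404 and 562 CPM in WT-TAC and 289, 316 and 608 in KO-TAC, with replicate 3 the highest of each group.

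Enzymes of malate-aspartate exchange, which passes cytosolic reducing power into the mitochondrion, stood slightly above 0 in log2 fold change. Got1, the cytosolic aspartate aminotransferase, ranged from 436 to 524 CPM over all libraries, the narrowest range, as a ratio, of the 39 genes. Its log2 fold change was 0.10 ± 0.18, that of Got2, the mitochondrial form, 0.12 ± 0.20, and that of Mdh1, cytosolic malate dehydrogenase, 0.07 ± 0.21.

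Ketone body genes overlapped between the genotypes in every case. Oxct1, the CoA transferase that commits ketone bodies to oxidation (chr15:4026383-4155344, GRCm38), was at 977, 1170 and 1454 CPM in WT-TAC and 1040, 1125 and 1623 in KO-TAC. Replicate 3 was the highest of each group, and the log2 fold change was 0.07 ± 0.24 (fold interval 0.739 to 1.496). Acat1, the thiolase after it, had 335 to 566 CPM in WT-TAC and 427 to 626 in KO-TAC, with 0.11 ± 0.23.

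Bdh1, the dehydrogenase that makes the first step of 3-hydroxybutyrate use and is described as induced in failing hearts, ran another way across libraries. It was at 379, 288 and 315 CPM in WT-TAC and 267, 372 and 281 in KO-TAC. WT-TAC replicate 1, lowest for Oxct1 and Acat1, was highest for Bdh1, and the log2 fold change was −0.09 ± 0.20. Oxct1 over Bdh1 per kilobase went from 2.71 in WT-TAC replicate 1 to 6.06 in KO-TAC replicate 3, with 3.18 to 4.85 in the other libraries.

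Of the branched-chain genes, 6 of 9 were above 0. Bckdha, the E1 alpha subunit of the branched-chain ketoacid dehydrogenase, was at 62.8, 133 and 147 CPM in WT-TAC and 124, 159 and 162 in KO-TAC. WT-TAC replicate 1 stood far below the rest. The log2 fold change was 0.38 ± 0.27 (unadjusted p = 0.193 and adjusted p = 0.999 in edgeR), and 0.08 without that library. Hibch, a hydrolase of valine breakdown, was at 59.5, 77.8 and 111 CPM in WT-TAC and 97.2, 84.2 and 103 in KO-TAC. Its log2 fold change was 0.20 ± 0.22, and 0.01 without WT-TAC replicate 1.

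Dbt, Bckdhb and Ppm1k of the same complex were high in both replicates numbered 3. Dbt, the E2 subunit, had 86.7 CPM in WT-TAC replicate 3 and 73.9 in KO-TAC replicate 3, against 36.7 to 49.2 in the other libraries. Ppm1k, the phosphatase that activates the complex, had 168 and 155 CPM there, against 68.8 to 104 elsewhere. Bckdhb, the E1 beta subunit, had 40.5 and 33.1, against 19.3 to 27.0. Bckdk, the kinase that inactivates the complex, did not follow, at 59.4 and 47.0 against 43.0 to 64.3.

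Between genotypes the log2 fold changes of these genes were −0.20 ± 0.34 for Dbt, −0.19 ± 0.39 for Ppm1k, 0.02 ± 0.30 for Bckdhb and −0.03 ± 0.21 for Bckdk. Bcat2, the mitochondrial aminotransferase that starts the pathway, had 0.07 ± 0.19, Ivd of leucine breakdown 0.03 ± 0.23 and Hibadh of valine breakdown 0.07 ± 0.22.

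Most of the 39 genes shared their low and high libraries. The median log2 deviation from each gene's mean over the 6 libraries was −0.33, 0.02 and 0.19 in WT-TAC replicates 1 to 3 and −0.17, −0.05 and 0.22 in KO-TAC replicates 1 to 3. WT-TAC replicate 1 was the lowest library for 26 of 39 genes, or 66.7%, against 23.3% of all tested genes. WT-TAC replicate 3 was the highest for 16 genes and KO-TAC replicate 3 for 14. These are 41% and 35.9%, against 13.7% and 18.7% of all tested genes.

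Nppa, in the same order of libraries, was at 7904, 2444 and 2668 CPM in WT-TAC and 6603, 5033 and 311 in KO-TAC. Nppb was at 741, 383 and 202 CPM in WT-TAC and 1492, 817 and 129 in KO-TAC. Myh7 was at 7253, 5846 and 2379 CPM in WT-TAC and 5607, 14269 and 6578 in KO-TAC. KO-TAC replicate 1 was thus the lowest of its group for Myh7 and the highest for Nppa and Nppb. The summed ventricular cardiomyocyte markers were 69751, 82583 and 80557 CPM in WT-TAC and 64397, 83879 and 92860 in KO-TAC, and the 6 summed fibroblast markers 3022, 1745 and 1318 and 2761, 1891 and 1084. WT-TAC replicate 1 and KO-TAC replicate 1, lowest in the median over the members, were also lowest in the cardiomyocyte sum and highest in Nppa and the fibroblast sum. The cardiomyocyte sum was mostly Myh6, at 40967 of 69751 CPM in WT-TAC replicate 1. In that library Tnni3 and Myl2 were at their lowest, 3165 and 3302 CPM. Tnnt2, Actc1, Ryr2 and Pln lay within the range of the other libraries, Tnnt2 at 9619 CPM (6151 to 10544 elsewhere). The fibroblast sum was mostly the collagens Col1a1, Col1a2 and Col3a1. Of the other fibroblast markers Dcn was lowest in WT-TAC replicate 1, at 302 CPM against 378 to 580, where Lum was at 58.2 (44.2 to 94.8 elsewhere) and Pdgfra at 78.2 (53.5 to 93.5 elsewhere). Their part in the pattern was not tested. In tissue RNA, fewer cells of a type and less RNA per cell cannot be told apart.

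**Figure D3:**
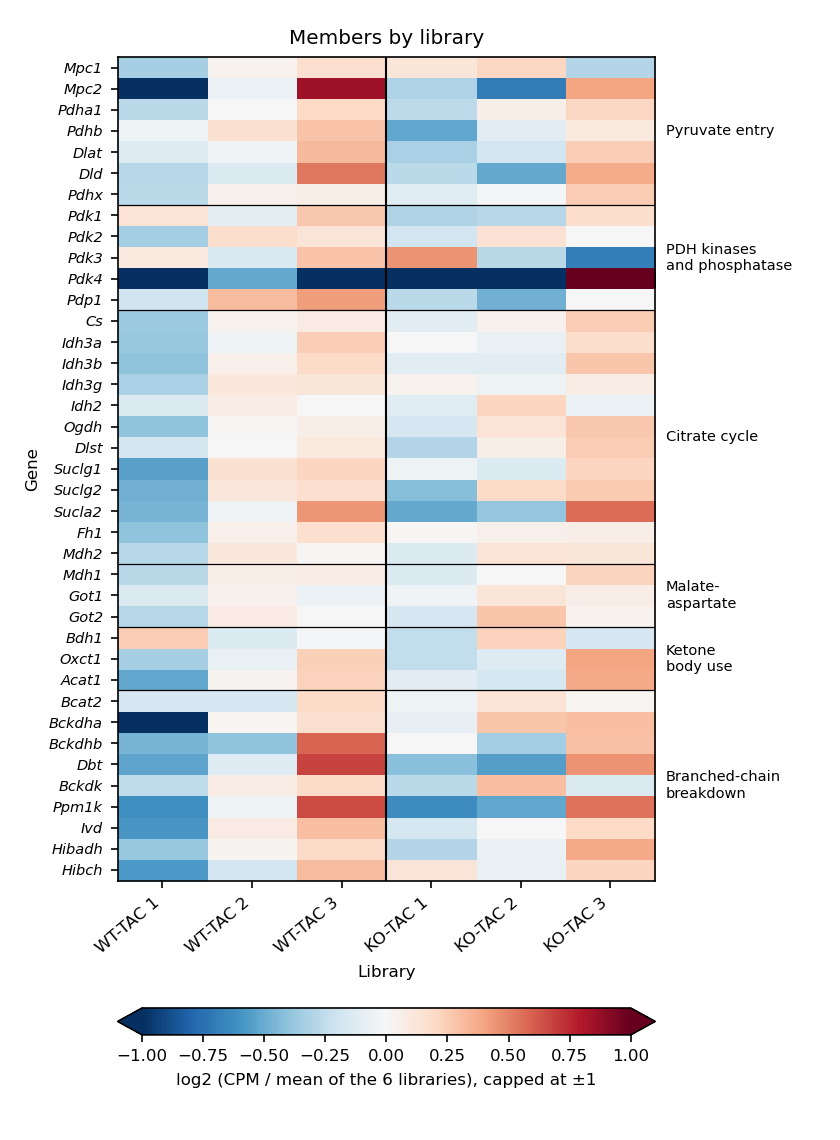
Level of each member in each library as log2 of its CPM over its mean in the 6 libraries, with 0.5 CPM added (colour, capped at 1 either way); rows are genes by step and columns libraries. The columns of WT-TAC replicate 1 and KO-TAC replicate 1 are mostly blue (below the mean) and those of both replicates 3 mostly red, and Pdk4 is red in KO-TAC replicate 3 alone.

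Levels were also set against the base composition of the transcripts. Across the 39 members the level in a library relative to the gene's mean had a Spearman correlation with the GC content of the longest transcript of −0.54 in WT-TAC replicate 3, −0.54 in KO-TAC replicate 3 and 0.75 in KO-TAC replicate 2. In WT-TAC replicates 1 and 2 and KO-TAC replicate 1 it was 0.28, 0.16 and 0.45. Over 12027 tested genes the same correlations were −0.33, −0.33 and 0.31, and 0.08, 0.12 and 0.17. With the length of that transcript the correlations over the members were −0.19, −0.18 and 0.32 in WT-TAC replicates 1 to 3 and −0.55, −0.35 and 0.34 in KO-TAC replicates 1 to 3. Over all tested genes they lay between −0.12 and 0.16. Genes of 1 library share its preparation and are not independent replicates.

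The 7 members of lowest GC were Pdp1 (39.2%), Hibadh (39.5%), Ppm1k (39.9%), Dld (40.6%), Dbt (42.1%), Mpc2 (43.2%) and Sucla2 (43.2%). In WT-TAC replicate 3 they lay 0.19 to 0.85 log2 above their means, and in KO-TAC replicate 3 the others lay 0.37 to 0.56 above and Pdp1 at 0.0023. Of the 5 of highest GC, Bckdha (57.9%) lay 0.16 and 0.30 above its mean in these libraries, Pdk2 (56.9%) 0.13 and 0.0063, and Bcat2 (54.3%) 0.19 and 0.02. Idh2 (55.6%) had 0.0075 and −0.06, and Got2 (54.5%) −0.0023 and 0.03. The part of GC content and length in these levels was not tested.

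**Figure D4:**
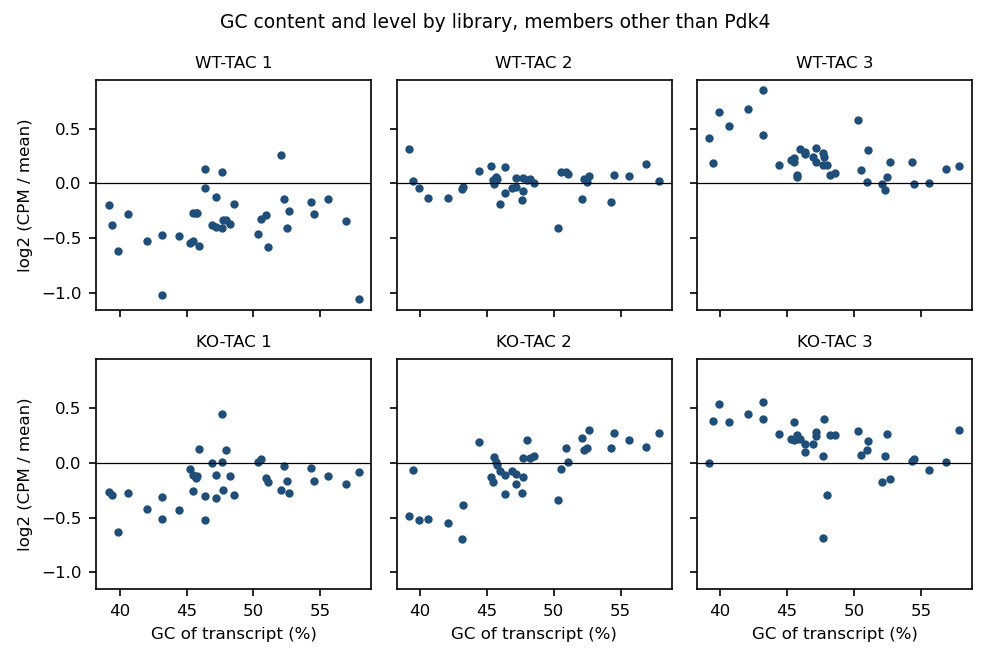
Level of 38 members, without Pdk4, in each library as log2 of CPM over the gene's mean (y axis) against the GC content of the longest transcript in percent (x axis), 1 point per gene and 1 panel per library. Low-GC genes lie mostly high in both replicates 3 and low in KO-TAC replicate 2.

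Other genes of the same pathways were listed by function, 46 in all. Of 44 tested, 0 were called and 0 had an unadjusted p under 0.05 in edgeR, and 32 had a log2 fold change above 0 (21 without WT-TAC replicate 1). With the lowest p among those above 0, Ogdhl, a paralog of Ogdh, had 0.44 ± 0.22, Mcee, an epimerase of propionyl-CoA use, 0.33 ± 0.20, and Ldha, lactate dehydrogenase A, 0.30 ± 0.18. Among those below 0, Slc7a5, an importer of large neutral amino acids, had −0.49 ± 0.43, Slc25a1, the citrate carrier, −0.50 ± 0.50 and Sdhc, of succinate dehydrogenase, −0.18 ± 0.22.

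Groups did not overlap for 3 of the 44, Ldha, Mcee and Acad8, each higher in KO-TAC. That is 6.82%, against 7.98% of all tested genes. Ldha was at 332, 345 and 294 CPM in WT-TAC and 392, 418 and 383 in KO-TAC. Klf15, a transcription factor that drives branched-chain breakdown genes in the heart, had a log2 fold change of −0.10 ± 0.26.

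Promoter windows, 250 bases before to 50 after a start, were found for 35 members (RefSeq, GRCm38.p6). TCAAGGTCA, a binding motif of estrogen-related receptors, which drive mitochondrial genes, was in 0 of 35 on either strand and in 0.328% of the 9460 tested genes with a window. Its core AAGGTCA, part of the longer motif, was in the windows of Ogdh and Got1, 5.71% of 35 members, and in 3.90% of the tested genes.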

How the data were processed

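Raw read counts per gene symbol for 6 heart libraries were deposited, with no normalization recorded. Per the submitters' processing notes, the tools were HISAT2 2.1.0, FastQC, edgeR and Subread and the builds GRCm38 and mm10, without roles. The members, steps and gene lists were chosen with earlier results of these data known. Counts were tested across all 12487 genes passing filterByExpr (minimum count 10) with edgeR 4.0.16 in R 4.3.3, by TMM scaling and a robust quasi-likelihood fit of genotype without covariates. Fold changes are log2 of KO-TAC over WT-TAC, their standard error is the size of the change over the square root of F, and intervals use the t distribution of the fit. CPM use TMM-scaled library sizes. Lengths, GC content, positions and 3' UTRs come from GENCODE M21 (GRCm38), which all 39 members matched. The exons of 9 members, among them Pdha1, Idh3b, Mdh1 and Bckdha, overlap a gene on the other strand, and the labels' protocols name both plain and stranded kits, so their reads cannot be told from that gene's. Mpc1 and Got2 have annotated pseudogenes that may share reads. Every library value is given for the 5 members of lowest p each way and for Pdk4, Oxct1, Bdh1, Cs and Pdha1, and other pathway genes are named by the 3 lowest p values each way. Further genes were named after their values were seen, and some of the listed genes are not reported here. Alternatives were other scalings and filters, DESeq2 1.42.0, limma 3.58.1, a replicate block and each library left out. The test was tried on simulated counts of 12487 genes in the layout of KO-TAC against WT-TAC. There 38 of 100 genes changed 2-fold and 83 of 100 changed 4-fold were recovered, with 12 false calls. The simulated counts were drawn for each gene on its own, without the shifts that genes of a library share in the data. Recovery in the data may therefore differ.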

Additional observations from a re-analysis of the deposited data

How the results depend on the processing

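Under every alternative run 0 members were called, the lowest adjusted p of any being 0.837 (Pdp1 without KO-TAC replicate 3, edgeR). The number of all genes called, 3 with all libraries, was 21 with no filter on low counts, 16 with DESeq2, 0 with limma-voom with or without quality weights (676 and 364 genes at an unadjusted p under 0.05) and 0 to 7 with 1 library left out, 0 being without WT-TAC replicate 1 (437 unadjusted). Replicate numbers were not taken as pairs in the main fit. Deviations from group means correlated at 0.13, 0.01 and 0.26 between libraries numbered 1, 2 and 3. The last was the highest of any WT-TAC with any KO-TAC library, while WT-TAC replicate 1 correlated best, at 0.15, with KO-TAC replicate 2. With 3 libraries a group these values cannot tell whether same-numbered libraries share a batch. With the replicate block 6 genes and 0 members were called, and Bckdha and Pdp1 were under an unadjusted 0.05. Members above 0, 26 of 39, numbered 16 with quality weights and 9 to 34 with 1 library left out, and the other pathway genes above 0, 32, numbered 21 to 38. The direction of 9 members held without each library in turn, and 30 turned. The cause of these shifts was not tested.

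With 1 library left out the log2 fold changes that turned ran as follows: Mpc1 −0.078 to 0.20, Mpc2 −0.61 to 0.33, Pdha1 −0.089 to 0.15, Dlat −0.33 to 0.011, Dld −0.47 to 0.12, Pdhx −0.023 to 0.17, Pdk2 −0.17 to 0.079, Pdk3 −0.60 to 0.044, Pdk4 −0.53 to 2.09, Idh3a −0.075 to 0.24, Idh3b −0.093 to 0.19, Idh3g −0.098 to 0.11, Idh2 −0.072 to 0.10, Dlst −0.081 to 0.19, Suclg1 −0.17 to 0.17, Suclg2 −0.11 to 0.26, Sucla2 −0.48 to 0.20, Fh1 −0.072 to 0.20, Mdh2 −0.020 to 0.17, Mdh1 −0.033 to 0.16, Got2 −0.0012 to 0.22, Bdh1 −0.25 to 0.019, Oxct1 −0.15 to 0.23, Acat1 −0.087 to 0.28, Bckdhb −0.17 to 0.45, Dbt −0.59 to 0.21, Bckdk −0.22 to 0.084, Ppm1k −0.67 to 0.20, Ivd −0.18 to 0.23, Hibadh −0.14 to 0.21 and Nppa −0.70 to 0.63. Those that held their direction ran from −0.44 to −0.14 for Pdhb, −0.41 to −0.15 for Pdk1, −0.61 to −0.32 for Pdp1, 0.0062 to 0.23 for Cs, 0.052 to 0.30 for Ogdh, 0.056 to 0.15 for Got1, 0.0077 to 0.21 for Bcat2, 0.080 to 0.60 for Bckdha and 0.0050 to 0.46 for Hibch.

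Without scaling beyond the total count the direction turned for Pdha1 −0.0046 and Bckdhb −0.0089. With quality weights it turned for Pdha1 −0.042, Idh3b −0.046, Idh3g −0.030, Dlst −0.031, Suclg1 −0.085, Suclg2 −0.050, Mdh1 −0.0094, Bdh1 0.0014, Oxct1 −0.049, Acat1 −0.035, Ivd −0.057, Hibadh −0.070 and Nppa 0.066. Leaving out Pdk4 moved the median over the members from 0.05 to 0.04, an alternative chosen after seeing the data. With 1 library left out the median over the members ran from −0.08 to 0.17. The medians of pyruvate entry and of the kinases and phosphatase ran from −0.33 to 0.15 and from −0.41 to −0.077, and those of malate-aspartate exchange and ketone body use from 0.015 to 0.16 and from −0.087 to 0.23. Depth limits Pdk3, at 22 to 53 reads a library, more than the other members, and a minimum count of 50 left 38 members tested.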

Other observations

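Other genes were also high in KO-TAC replicate 3. By the ratio of that library to the next highest one, among tested genes with a mean of at least 10 CPM, Pdk4 was followed by Rgs2, a regulator of G protein signalling (51.4 CPM against at most 22.2), Ucp3, a mitochondrial uncoupling protein (110 against at most 56.6), Cdkn1a, a cell cycle inhibitor (29.1 against at most 15.2), Epn3 (49.5 against at most 25.9), Slc38a4, an amino acid transporter (21.3 against at most 11.3), and Zbtb6 (23.9 against at most 12.7). Some genes of fatty acid use were looked up for their known function after the values of Pdk4 were seen, so they are no fixed list and show no theme. Angptl4, an inhibitor of lipoprotein lipase, stood at 35.6 CPM there against 1.26 to 7.35 in the other libraries, and Plin5, a coat protein of lipid droplets, at 137 against 52.7 to 79.1. The acyl-CoA thioesterases Acot1 and Acot2 stood at 11.1 CPM against 0.122 to 2.41 and at 122 against 36.0 to 76.9. WT-TAC replicate 2 was second to it for Pdk4, Angptl4, Ucp3, Plin5, Acot1 and Acot2. Ppara, whose product senses fatty acids, was at 76.2 CPM in KO-TAC replicate 3 and 50.2 to 89.4 elsewhere, and the coactivator gene Ppargc1a at 215 against 127 to 198. Between genotypes Rgs2, Ucp3, Angptl4, Plin5, Acot1, Acot2, Ppara and Ppargc1a each had an adjusted p of 0.999 in edgeR.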
